A study of Mus musculus with 6 samples.

Results

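Transcripts of 9 genes that govern osteoclast formation and its coupling to bone formation were followed in cultures of the mouse mast cell line MC/9. They were chosen by gene symbol, from the 49568 genes in the deposited count table. They are the RANK ligand gene Tnfsf11, its receptor Tnfrsf11a, the decoy receptor osteoprotegerin (Tnfrsf11b), the ligands Csf1 and Il34 with their receptor Csf1r, the semaphorin Sema4d, and the ligand and receptor pair Efnb2 and Ephb4. In the rPTH group (3 libraries) mast cells that had been added to a layer of the mouse osteoblast line 7F2 were exposed to 10 nM rPTH for 24 h before collection. The control group (3 libraries) came from MC/9 cells with no rPTH. Both cell types are established lines, the labels do not spell out rPTH, and they do not say whether control mast cells were also grown on osteoblasts. The labels do not say whether the libraries of a group stem from different cultures. The p-values therefore measure the spread between these libraries, which may be technical.

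Osteoclasts, the cells that resorb bone, form from myeloid precursors that receive both a CSF1 receptor signal and a RANK signal. RANK ligand binds RANK on the precursor, and osteoprotegerin binds RANK ligand in its place, so that the balance between ligand and decoy sets the strength of the signal. In bone, parathyroid hormone acts on cells of the osteoblast lineage and raises their RANK ligand while lowering their osteoprotegerin. Semaphorin 4D and ephrin B2 carry signals between osteoclasts and osteoblasts, through plexin B1 and EphB4 on the osteoblast.

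Library totals ran from 30623648 to 33577977 counts with rPTH and from 22282095 to 24993606 counts in controls. Levels below are CPM, counts relative to library size, scaled by TMM factors that correct each library for composition. The factor was 1.03 to 1.06 in 5 libraries and 0.81 in control 1. The cells carried the mast cell label in their transcripts: 11 mast cell markers summed to 6350 to 8239 CPM with rPTH and to 7872 to 9621 CPM in controls, led by Cpa3 and Fcer1a. The libraries were not of mast cell transcripts alone. A list of 25 osteoblast and stromal markers, led by the matrix proteoglycan Bgn and the collagen chain Col1a1, summed to 2547, 1617 and 1684 CPM in rPTH 1, 2 and 3, against 1513, 1284 and 1233 CPM in control 1, 2 and 3. The rPTH libraries all lay above the controls in this sum, and rPTH 1 was the highest. Of the 19 markers tested, 18 had a log2 fold change above 0 (median 0.56), and none passed. Among all tested genes 41.5% were above 0, with a median of -0.09. The osteoblast transcription factor genes Runx2 and Sp7 averaged 23.4 and 0.651 CPM over the 6 libraries, and the late osteoblast gene Bglap 0.132 CPM. In such bulk RNA, more cells of a type and more RNA per cell cannot be told apart, and neither can a member's transcripts from mast cells and from osteoblasts.

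Of the 9 members 6 passed the filter on low counts and were tested with all other genes, 16696 in total, by edgeR's quasi-likelihood test with Benjamini-Hochberg adjustment. No member had an adjusted p under 0.05, and neither had any other gene (0 of 16696, or 0.0%). Before adjustment 1314 genes (7.87%) had a p under 0.05, of which 331 (1.98%) were higher and 983 (5.89%) lower with rPTH, and 0 of the 6 members were among them. For 2 members, Tnfrsf11b and Efnb2, the 3 rPTH libraries lay above the 3 controls; among all tested genes 8.35% did so. The median log2 fold change was 0.29 over the 6 tested members and -0.09 over all tested genes. Members that did not pass the filter were Tnfsf11, Tnfrsf11a and Csf1r.

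**Figure D1:**
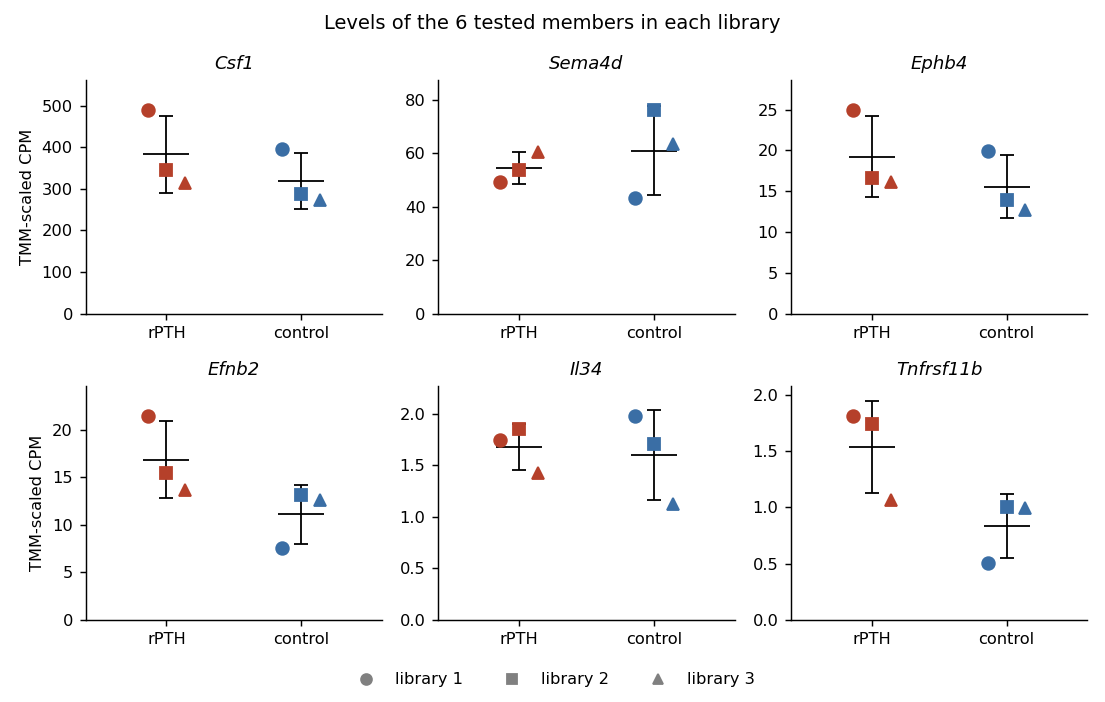
TMM-scaled CPM of the 6 tested members on axes that start at 0, with 1 symbol per library (rPTH left, control right) and the mean ± SD of 3 libraries as bars. The groups are separate for Efnb2 and Tnfrsf11b and overlap for Csf1, Sema4d, Ephb4 and Il34. Control 1 is the highest control for Csf1, Ephb4 and Il34 and the lowest for Sema4d, Efnb2 and Tnfrsf11b.

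Per length of transcript the members spanned a wide range of levels. CSF1 mRNA stood far above the rest, at a mean of 66.4 CPM per kb of exon over the 6 libraries (51.9 to 92.5), and 1138 of 16171 tested genes with an annotated length were higher. Sema4d followed at 7.52 CPM per kb (5.65 to 9.91), below Csf1 in every library. Next came Ephb4 at 3.75 (2.73 to 5.37) and Efnb2 at 2.04 CPM per kb (1.10 to 3.12). The ranges of this receptor and ligand overlapped. Il34 had 0.837 CPM per kb (0.574 to 1.01) and Tnfrsf11b 0.421 (0.180 to 0.642), which also overlapped. At the bottom were Csf1r at 0.0688 and Tnfsf11 at 0.0550 CPM per kb, whose ranges overlapped, and Tnfrsf11a at 0.00591 CPM per kb. Exon length here is the sum of all annotated exons of a gene, so a level is understated where a cell uses a short transcript.

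The first question was whether transcripts of the RANK ligand system were present in these libraries, from either cell type, and whether they differed with rPTH. RANK ligand transcripts were close to the limit of detection. Tnfsf11 (chromosome 14, 78277445 to 78308043 in GENCODE M21 on GRCm38) had 6, 3 and 5 counts in rPTH 1, 2 and 3, against 3, 1 and 3 counts in control 1, 2 and 3. A count of 0 would allow up to 3 counts, which is 0.0841 to 0.152 CPM at these depths, so that 4 of the 6 libraries were at or under this floor. Pooled over 3 libraries, the counts gave 0.138 CPM with rPTH (exact 95% Poisson interval 0.0752 to 0.231) and 0.102 CPM in controls (0.0409 to 0.210). The ratio of rPTH to control was 1.35, with an exact interval of 0.511 to 3.96 that covers counting error only. At this depth neither a difference nor its absence was detectable.

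RANK itself was not detectable above the floor. Tnfrsf11a (chromosome 1, 105780718 to 105847981) had 0, 1 and 0 counts in rPTH 1, 2 and 3, against 2, 1 and 1 counts in control 1, 2 and 3. All 6 libraries were under 3 counts, so no fold is given. Markers of mature osteoclasts were mixed: 9 of them summed to 6.35 to 7.30 CPM with rPTH and 5.75 to 7.14 CPM in controls, and 3 passed the filter. Most of the sum came from the integrin chain Itgb3 (129 to 172 counts with rPTH, 67 to 125 in controls) and the protease Ctsk (51 to 78 counts with rPTH, 32 to 53 in controls). The osteoclast phosphatase Acp5 had 0 to 2 counts per library, and the fusion gene Ocstamp had 0 counts in every library.

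Osteoprotegerin, the decoy receptor that keeps RANK ligand from RANK, had the largest fold change of the 6 tested members. Tnfrsf11b (chromosome 15, 54250619 to 54278484) had 57, 60 and 38 counts in rPTH 1, 2 and 3, against 10, 26 and 23 counts in control 1, 2 and 3. Scaled, this was 1.81, 1.74 and 1.07 CPM with rPTH, against 0.507, 1.01 and 0.995 CPM in controls. Every rPTH library lay above every control, but rPTH 3 was only just above control 2. The means were 1.54 ± 0.411 CPM with rPTH and 0.836 ± 0.285 CPM in controls (SD, n = 3 each). The log2 fold change was 0.87 ± 0.40 (SE), a 1.82-fold difference with a 95% interval of 0.941 to 3.53, and edgeR's adjusted p was 0.619. In the authors' deposited table its log2 fold change was 0.70 with an adjusted p of 0.432. Without control 1, the lowest library, the log2 fold change was 0.60, and without both control 1 and rPTH 1 it was 0.48. Per 1000 CPM of osteoblast and stromal markers, Tnfrsf11b had 0.710, 1.08 and 0.633 CPM with rPTH, against 0.335, 0.784 and 0.807 CPM in controls, and the groups overlapped. The mean log2 difference on that scale was 0.40. The marker sum was higher in every rPTH library, so dividing by it lowers the rPTH values relative to the controls for any gene. The part of stromal transcripts in the difference between rPTH and control was not tested.

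Set against each other, RANK ligand was below its decoy in every library. The count of Tnfsf11 per base of exon was 0.133, 0.0630 and 0.166 times that of Tnfrsf11b in rPTH 1, 2 and 3, against 0.378, 0.0485 and 0.164 times in control 1, 2 and 3. The groups overlapped, and control 1 held the highest ratio and control 2 the lowest. On the log2 scale, with 0.5 added to each count, the ratio averaged -3.35 ± 0.68 with rPTH and -2.83 ± 1.28 in controls (SD, n = 3 each), a difference of -0.53. With fewer than 10 counts of Tnfsf11 in each library no test was made. Without control 1 the difference was 0.09, so its sign rests on that library.

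**Figure D2:**
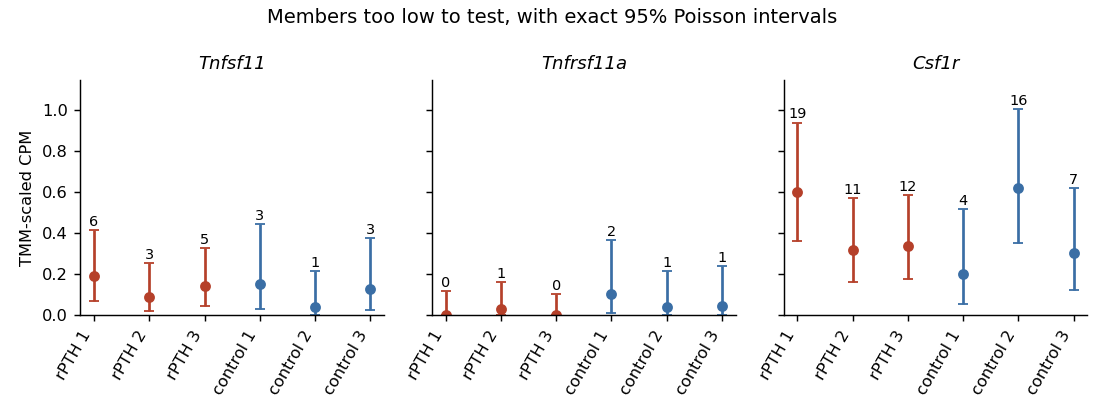
TMM-scaled CPM of the 3 members too low to test in each library (rPTH left, control right), with exact 95% Poisson intervals for counting error as bars and the raw count above each. Tnfsf11 had 1 to 6 counts and Tnfrsf11a 0 to 2 counts, and within each gene the intervals of the groups overlap.

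The second pathway was that of the CSF1 receptor, which keeps osteoclast precursors alive and dividing. Csf1, the main ligand, was abundant. The gene (chromosome 3, 107741048 to 107760469) had 489, 345 and 314 CPM in rPTH 1, 2 and 3, against 395, 287 and 274 CPM in control 1, 2 and 3. These rest on 11184 to 15395 counts with rPTH and 6337 to 7805 counts in controls, so counting error is small beside the spread between libraries. The 2 groups overlapped, since control 1 was above rPTH 2 and rPTH 3. The means were 382 ± 93.3 CPM with rPTH and 319 ± 66.8 CPM in controls (SD, n = 3 each), and the log2 fold change was 0.26 ± 0.25 (SE) with an edgeR adjusted p of 0.689. The 95% interval ran from 0.794-fold to 1.81-fold.

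Both the overlap and the size of the Csf1 difference depended on single libraries. In plain CPM, with no TMM factor, Csf1 had 503, 361 and 333 CPM with rPTH, against 320, 296 and 284 CPM in controls, and the groups did not overlap; by that scale 13.5% of all tested genes had every rPTH library above every control. Without rPTH 1 the log2 fold change was 0.05 and without control 1 it was 0.43. The library with the most Csf1, rPTH 1, was also the one with the most stromal marker transcripts. Per 1000 CPM of these markers, Csf1 had 192, 213 and 186 CPM with rPTH, against 261, 223 and 222 CPM in controls. On that scale all 3 rPTH libraries lay below the controls, the opposite order to that of plain CPM. The marker sum was itself higher in every rPTH library (mean 1949 CPM, against 1343 CPM in controls). Dividing by it lowers the rPTH values relative to the controls for any gene. Ephb4 had this order too. The share of all tested genes with it was not computed, so whether the order is particular to these members is not known. Whether stromal transcripts account for the difference was not tested.

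Il34 encodes the other ligand of the CSF1 receptor. It (chromosome 8, 110741829 to 110805924) had 55, 64 and 51 counts in rPTH 1, 2 and 3, against 39, 44 and 26 counts in control 1, 2 and 3. In scaled units the means were 1.68 ± 0.221 CPM with rPTH and 1.602 ± 0.435 CPM in controls (SD, n = 3 each). The log2 fold change was 0.07 ± 0.33 (SE) with an adjusted p of 0.933, and the 95% interval ran from 0.614-fold to 1.79-fold. Control 1 had the highest level and control 3 the lowest, so the controls enclosed all 3 rPTH libraries. Leaving out 1 library at a time gave log2 fold changes from -0.04, without control 3, to 0.23, without control 1. Il34 shares 22 and 75 exonic bases with the antisense genes Gm15894 and Gm15895; whether reads were counted by strand is not stated here, so reads of these bases cannot be told apart.

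The receptor for both ligands was scarce. Csf1r (chromosome 18, 61100598 to 61132149) had 19, 11 and 12 counts in rPTH 1, 2 and 3, against 4, 16 and 7 counts in control 1, 2 and 3. Pooled, this was 0.413 CPM with rPTH (exact 95% Poisson interval 0.297 to 0.558) and 0.393 CPM in controls (0.259 to 0.571), a ratio of 1.05 with an interval of 0.633 to 1.77. Csf1r shares 873 exonic bases with Hmgxb3 on the other strand, so part of even these counts is uncertain. Genes of the macrophage lineage, where Csf1r is normally high, ranged widely, and 8 of 13 on that list passed the filter. The macrophage receptor Adgre1 had 8 to 15 counts with rPTH and 6 to 10 counts in controls, and the complement gene C1qa had 0 counts with rPTH and 0 to 1 counts in controls. The macrophage and monocyte list summed to 42.1 to 44.6 CPM with rPTH and 41.5 to 69.4 CPM in controls, with most of it from the Fc receptor Fcgr1, Cd14 and Ly6c2 (means of 21.2, 11.0 and 10.1 CPM over the 6 libraries).

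Semaphorin 4D is made by osteoclasts and many leukocytes and restrains osteoblasts through plexin B1. Sema4d (chromosome 13, 51685529 to 51793747) had 49.1, 53.6 and 60.7 CPM in rPTH 1, 2 and 3, against 43.4, 76.1 and 63.6 CPM in control 1, 2 and 3. All 3 rPTH values lay between the lowest and the highest control. The means were 54.5 ± 5.81 CPM with rPTH and 61.0 ± 16.5 CPM in controls (SD, n = 3 each), so the SD was wider among controls than with rPTH. The log2 fold change was -0.16 ± 0.23 (SE) with an edgeR adjusted p of 0.772, and the 95% interval ran from 0.611-fold to 1.30-fold. Sema4d was the only tested member with a fold change below 0, and its log2 fold change was 0.02 without control 2 and -0.37 without control 1. Lymphocytes are a known source of Sema4d, and 7 lymphocyte markers summed to 0.349 to 0.696 CPM with rPTH and 0.426 to 0.735 CPM in controls. Sema4d was lowest in rPTH 1 among the rPTH libraries, where Csf1, Efnb2 and Ephb4 were highest.

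**Figure D3:**
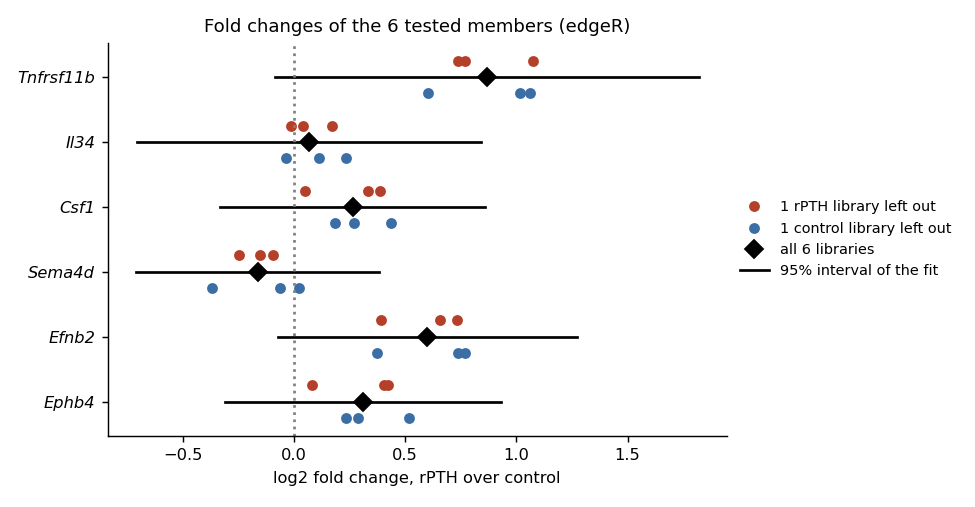
Log2 fold change of each tested member (rPTH over control) from edgeR, as a diamond with its 95% interval, with circles for the 6 fits that leave out 1 library. Every interval crosses 0, and leaving out single libraries carried Il34 and Sema4d across 0 but not Tnfrsf11b, Csf1, Efnb2 or Ephb4.

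The last pair was ephrin B2 and its receptor EphB4, which signal in both directions across the contact between cells. Efnb2 (chromosome 8, 8617434 to 8661242) had 674, 533 and 488 counts in rPTH 1, 2 and 3, against 149, 339 and 292 counts in control 1, 2 and 3. As CPM this was 21.4, 15.5 and 13.7 with rPTH, against 7.55, 13.1 and 12.6 in controls. The groups did not overlap, but rPTH 3 and control 2 were close, and control 1 was well below the other libraries. The means were 16.8 ± 4.04 CPM with rPTH and 11.1 ± 3.09 CPM in controls (SD, n = 3 each). The log2 fold change was 0.60 ± 0.28 (SE), a 1.51-fold difference with a 95% interval of 0.950 to 2.41 and an edgeR adjusted p of 0.619. In the authors' deposited table it was 0.57 with an adjusted p of 0.431. Without control 1 the log2 fold change was 0.37, without rPTH 1 it was 0.39, and without both it was 0.17. Per 1000 CPM of stromal markers Efnb2 had 8.40, 9.56 and 8.13 CPM with rPTH, against 4.99, 10.2 and 10.2 CPM in controls, with overlap. The mean log2 difference on that scale was 0.11. Here too, dividing by the marker sum, higher in every rPTH library, lowers the rPTH values relative to the controls for any gene.

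The receptor gene Ephb4 (chromosome 5, 137350109 to 137378669) had 24.9, 16.6 and 16.2 CPM in rPTH 1, 2 and 3, against 19.9, 13.98 and 12.7 CPM in control 1, 2 and 3. As for Csf1, control 1 exceeded rPTH 2 and rPTH 3 and the groups overlapped. The means were 19.2 ± 4.92 CPM with rPTH and 15.5 ± 3.86 CPM in controls (SD, n = 3 each), with a log2 fold change of 0.31 ± 0.26 (SE), an adjusted p of 0.662 and a 95% interval of 0.806-fold to 1.91-fold. In plain CPM the groups did not overlap, at 25.6, 17.4 and 17.2 CPM with rPTH, against 16.1, 14.4 and 13.1 CPM in controls. By plain CPM, 13.5% of all tested genes had every rPTH library above every control. The log2 fold change was 0.08 without rPTH 1 and 0.52 without control 1. Per 1000 CPM of stromal markers Ephb4 had 9.78, 10.3 and 9.61 CPM with rPTH, against 13.2, 10.9 and 10.3 CPM in controls. On that scale no rPTH library was above a control, although rPTH 2 and control 3 were all but equal. As for Csf1, dividing by the higher marker sum lowers the rPTH values, and the share of all tested genes with this order was not computed. Endothelial cells carry both genes of the pair. An endothelial list of 7 genes summed to 150 to 197 CPM with rPTH and 186 to 205 CPM in controls, most of it from Pecam1, and the endothelial cadherin Cdh5 had 1 to 4 counts per library. Ephb4 shares 33 exonic bases with Zan on the other strand.

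**Figure D4:**
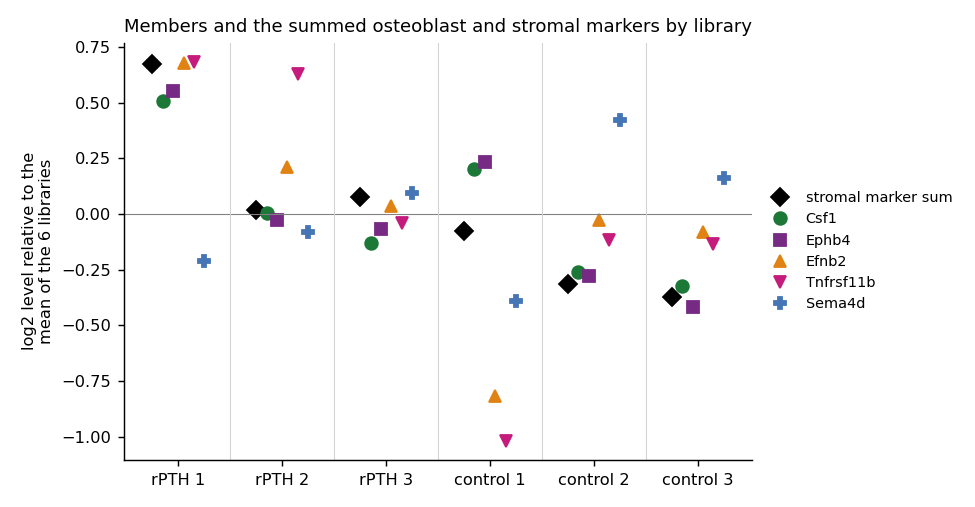
Log2 level of 5 members and of the summed osteoblast and stromal markers in each library (rPTH left, control right), relative to its own mean over the 6 libraries. In control 1 Csf1 and Ephb4 are above their means while Efnb2, Tnfrsf11b and Sema4d are below theirs, and in rPTH 1 all but Sema4d are above.

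RefSeq's promoter table on GRCm38.p6 held 6 of the 9 members, all but Tnfrsf11b, Csf1r and Il34. Of these 6, Csf1, Efnb2 and Ephb4 passed the count filter and had their highest level in rPTH 1, and their sequences are shown for that reason, chosen after their values were seen. Each line gives the 250 bases before the start, 5′ to 3′ on the gene's strand, and capitals mark GC boxes (GGGCGG on either strand) and the core of the cAMP response element (TGACG on either strand).
Csf1, chr3:107760470-107760719, minus strand: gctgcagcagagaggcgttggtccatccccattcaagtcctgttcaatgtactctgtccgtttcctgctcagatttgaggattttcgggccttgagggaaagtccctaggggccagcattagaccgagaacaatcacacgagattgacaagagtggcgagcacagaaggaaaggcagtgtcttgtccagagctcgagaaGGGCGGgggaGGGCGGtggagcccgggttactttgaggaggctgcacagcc
Efnb2, chr8:8661243-8661492, minus strand: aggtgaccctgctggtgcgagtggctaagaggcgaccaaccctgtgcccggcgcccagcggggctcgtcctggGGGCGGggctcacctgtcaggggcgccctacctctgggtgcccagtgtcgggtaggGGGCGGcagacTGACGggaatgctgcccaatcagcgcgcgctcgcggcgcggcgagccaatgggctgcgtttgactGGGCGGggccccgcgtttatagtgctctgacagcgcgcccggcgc
Ephb4, chr5:137349859-137350108, plus strand: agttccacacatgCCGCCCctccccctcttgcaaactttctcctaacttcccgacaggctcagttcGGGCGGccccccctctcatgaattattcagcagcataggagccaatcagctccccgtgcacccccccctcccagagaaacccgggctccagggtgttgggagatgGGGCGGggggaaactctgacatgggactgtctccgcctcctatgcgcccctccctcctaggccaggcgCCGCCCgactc

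GC boxes, the sites of SP factors, occurred 2 times before Csf1, 3 times before Efnb2 and 4 times before Ephb4. At least 1 was present in 32.7% of all 32851 promoters in the table. The letters TGACG occurred once, before Efnb2, where the match lay 110 bases before the start, and they were found in 17.8% of all promoters. The full element TGACGTCA (1.55% of all promoters), the AP-1 motif TGANTCA (6.75%) and the RUNX motif TGTGGT (14%) had 0 matches in the 3 windows, both strands searched. The full element contains the shorter one. These are matches of letters in a window and say nothing of binding.

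Of 94 genes that act beside the members, in 7 lists, 78 were tested and 0 had an adjusted p under 0.05 in either direction. Their adjusted p ran from 0.619 to 0.994. Of the 78, 49 had a log2 fold change above 0 and 29 below, with a median of 0.13; of all tested genes 41.5% were above 0, a background for the counts of each list below. In 14 of them (17.9%) the 3 rPTH libraries lay above the controls, against 8.35% of all tested genes, and in 3 (3.85%) they lay below, against 8.46%. Before adjustment 7 had a p under 0.05, all higher with rPTH, against 1.98% of all tested genes in that direction.

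Receptors through which hormones and cytokines act on RANK ligand transcription in osteoblastic cells had 10 of 11 tested genes above 0, with a median log2 fold change of 0.47. Osmr, the oncostatin M receptor chain, had 87.1, 55.9 and 55.7 CPM in rPTH 1, 2 and 3, against 29.1, 37.8 and 43.8 CPM in control 1, 2 and 3, a log2 fold change of 0.84 ± 0.25 (SE). Il6st, the signal chain shared by receptors of the interleukin-6 family, had 105, 70.2 and 71.1 CPM with rPTH, against 29.2, 54.5 and 57.1 CPM in controls (0.81 ± 0.30). For 5 of the list the groups did not overlap. The other 3, named after their values were seen, were Lifr (0.72 ± 0.28), Il1r1 (0.65 ± 0.27) and Il6ra (0.47 ± 0.26), the receptor chains for LIF, interleukin-1 and interleukin-6. None passed the test. Without rPTH 1 the log2 fold change was 0.60 for Osmr, 0.59 for Il6st, 0.43 for Lifr and 0.42 for Il1r1. Without both control 1 and rPTH 1 it was 0.45 for Osmr, 0.34 for Il6st, 0.31 for Lifr and 0.34 for Il1r1. Nr3c1, the glucocorticoid receptor, had the highest mean of the list, at 150 ± 8.34 CPM with rPTH and 128 ± 51.5 CPM in controls (SD, n = 3 each). The sign of its difference rests on control 1, without which the log2 fold change was -0.08. The parathyroid hormone receptor Pth1r, also named after its values were seen, had 13 to 19 counts per library with rPTH and 10 to 11 counts in controls, and its log2 fold change was 0.03.

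Partners of RANK ligand and osteoprotegerin, with the proteases that shed RANK ligand from the membrane, had 6 of 7 tested genes above 0 (median log2 fold change 0.31). Lgr4, described as another receptor for RANK ligand, had 11.5, 7.74 and 7.07 CPM in rPTH 1, 2 and 3, against 5.12, 5.61 and 5.97 CPM in control 1, 2 and 3, with no overlap and a log2 fold change of 0.66 ± 0.26 (SE), which was 0.41 without rPTH 1. The shedding protease Mmp14 averaged 44.6 ± 11.4 CPM with rPTH and 34.0 ± 9.59 CPM in controls (SD, n = 3 each), and Adam10 147 ± 6.09 and 113 ± 45.9 CPM in the same order. Control 1 held the lowest Adam10 level, 60.3 CPM, while control 2 had 136 CPM and control 3 had 143 CPM. Without control 1 the log2 fold change of Adam10 was 0.06, against 0.37 with all libraries. For Mmp14 it was 0.39, with 0.16 without rPTH 1 and 0.63 without control 1.

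Genes of the RANK signal inside the cell, the TRAF adaptors, kinases and NF-kB subunits, were all high enough to test although RANK was not. They had 12 of 20 above 0 and a median log2 fold change of 0.05. Traf5, a TRAF adaptor, had 9.08, 9.48 and 8.58 CPM in rPTH 1, 2 and 3, against 15.2, 10.8 and 11.7 CPM in control 1, 2 and 3 (log2 fold change -0.47 ± 0.20, SE). Cyld, a deubiquitinase that damps the signal, had 77.5, 74.6 and 68.4 CPM with rPTH, against 43.1, 66.9 and 64.7 CPM in controls (0.34 ± 0.20). Neither passed, though in both the groups were separate, and without control 1 the log2 fold change of Cyld was 0.15. The adaptor Tab2 had the highest mean, at 261 ± 4.82 CPM with rPTH and 232 ± 69.7 CPM in controls (SD, n = 3 each).

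On the list for CSF1 receptor signalling 3 of 8 tested genes were above 0, with a median log2 fold change of -0.09. Spi1 encodes PU.1, a transcription factor of myeloid and mast cells that acts on the Csf1r gene. It had 35.9, 44.5 and 44.5 CPM in rPTH 1, 2 and 3, against 79.5, 55.1 and 45.7 CPM in control 1, 2 and 3, a log2 fold change of -0.53 ± 0.24 (SE) that did not pass and was -0.29 without control 1. The adaptor Tyrobp averaged 91.3 ± 17.4 CPM with rPTH and 147 ± 68.1 CPM in controls (SD, n = 3 each), with control 1 at 225 CPM. Its log2 fold change was -0.68 with all libraries and -0.25 without control 1. The phosphatase Inpp5d had the highest mean, at 229 ± 25.7 CPM with rPTH and 239 ± 60.5 CPM in controls.

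Among the class 4 semaphorins and plexin B receptors 7 of 13 tested genes were above 0 (median log2 fold change 0.02). Plxnb2, a plexin that binds class 4 semaphorins, had 107, 68.5 and 67.7 CPM in rPTH 1, 2 and 3, against 57.2, 61.9 and 55.7 CPM in control 1, 2 and 3 (0.48 ± 0.22, SE). Met, the hepatocyte growth factor receptor, which associates with plexin B1, had 26.6, 17.9 and 17.0 CPM with rPTH, against 9.32, 14.02 and 15.1 CPM in controls (0.68 ± 0.27). Both had separate groups and neither passed. Without rPTH 1 the log2 fold change was 0.23 for Plxnb2 and 0.45 for Met. The GTPase Rhoa, on which plexin B1 acts, had 259 ± 11.5 CPM with rPTH and 272 ± 21.002 CPM in controls (SD, n = 3 each).

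Other ephrins and Eph receptors had 7 of 13 tested genes above 0 and a median log2 fold change of 0.12, and 6 of the 19 on the list were too low to test. Epha2, the most abundant of them in CPM, averaged 29.2 ± 8.39 CPM with rPTH and 23.2 ± 1.999 CPM in controls (SD, n = 3 each). The ligands Efna5 (5.10 ± 1.89 and 3.41 ± 0.568 CPM with rPTH and in controls) and Efna2 (0.929 ± 0.103 and 1.47 ± 0.495 CPM in the same order) had log2 fold changes of 0.58 ± 0.34 and -0.66 ± 0.37 (SE). Their groups overlapped and neither passed the test. These were 0.30 for Efna5 without rPTH 1 and -0.31 for Efna2 without control 3.

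Of the other coupling factors, which osteoclasts or bone matrix release toward osteoblasts, 6 of 12 could be tested and 4 of these were above 0 (median log2 fold change 0.22). Complement C3 had 12.7, 7.22 and 8.30 CPM in rPTH 1, 2 and 3, against 5.98, 5.30 and 5.41 CPM in control 1, 2 and 3 (0.76 ± 0.27, SE). The growth factor Tgfb1, the most abundant of the list, had 192, 211 and 213 CPM with rPTH, against 334, 258 and 219 CPM in controls (-0.39 ± 0.20). Again the groups were separate and neither gene passed. The log2 fold change of C3 was 0.48 without rPTH 1, and that of Tgfb1 was -0.22 without control 1. C3, Osmr, Il6st, Lgr4, Met and Plxnb2 all had their highest level in rPTH 1, the library with the highest sum of stromal markers; the part of stromal transcripts in these values was not tested.

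**Figure D5:**
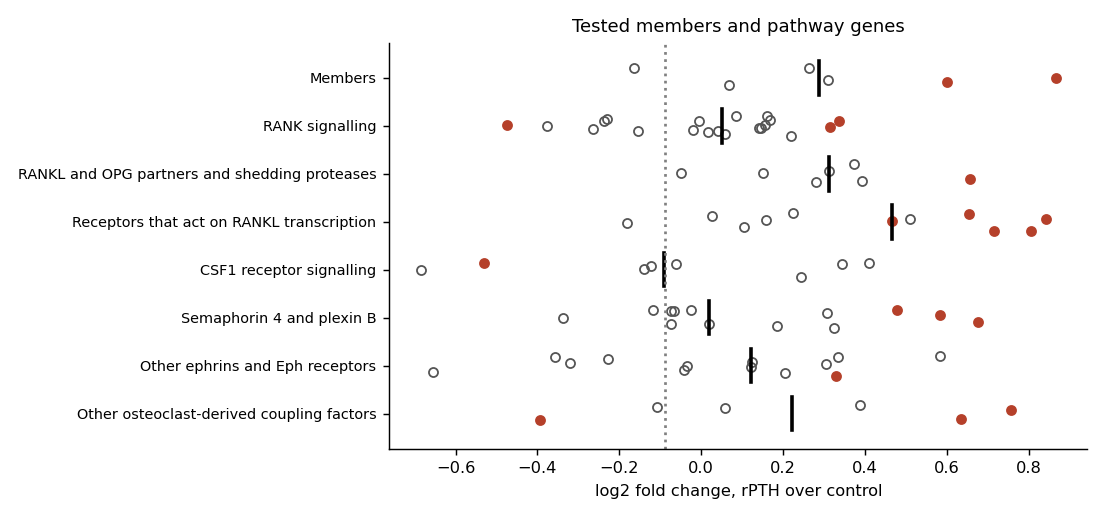
Log2 fold changes (rPTH over control) of the tested members and of the tested genes in 7 pathway lists, 1 circle per gene, filled where the 3 rPTH and 3 control libraries do not overlap, with black bars for list medians and a dotted line at the median of all tested genes (-0.09). Of the lists shown, receptors that act on RANK ligand transcription have the highest median, 0.47. The osteoblast and stromal markers, not shown, had a median of 0.56.

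Across the 6 libraries the members showed 2 patterns by their level in control 1, a description for which no test was made. Genes nearest to each member were sought among 14523 tested genes with a mean of at least 1 CPM, by the root mean square distance between log2 levels centred on each gene's own mean. For Csf1 they were Zbed3 (distance 0.04) and Pak1 (0.05), and for Ephb4 Srpx2 (0.04) and Zbed3 (0.04), and Zbed3 was near to both. Srpx2 had 33.3, 23.0 and 21.9 CPM in rPTH 1, 2 and 3, against 26.2, 17.9 and 16.5 CPM in control 1, 2 and 3. For Efnb2 the nearest were Usp6nl (0.04) and Tns3 (0.05). Tns3 had 114, 76.3 and 70.3 CPM with rPTH, against 38.6, 68.3 and 61.3 CPM in controls, with the low control 1 that Efnb2 also showed. Those of Sema4d were Akna (0.05) and Lysmd4 (0.05). The low-count members had less close neighbours, Tbc1d9 (0.12) and Ccbe1 (0.14) for Tnfrsf11b and the pseudogene Gm5940 (0.06) and Atf3 (0.08) for Il34.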

How the data were processed

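RNA from 3 rPTH and 3 control libraries was sequenced after Trizol extraction and TruSeq RNA library preparation, per the labels' protocols. The authors deposited whole-number counts per gene and library, not normalized. The submitters' processing notes name Trimmomatic 0.36, STAR 2.5.2b, Subread 1.5.0p3, featureCounts, DESeq2 1.12.4 and R 3.3.0, and the builds GRCm38.p5 and mm9, without saying what each was used for. The authors' deposited comparison table lists for each gene a mean signal over libraries, a log2 fold change and its error, a test score, and a raw and an adjusted p-value, per the file headers. Deposited normalized and regularised log2 tables were not used.

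Counts were tested in R 4.3.3 with edgeR 4.0.16 (filterByExpr with a minimum count of 10, TMM factors, robust quasi-likelihood fit on the group alone, Benjamini-Hochberg adjustment over all 16696 tested genes, threshold 0.05); the script was tested on simulated data. Standard errors and 95% intervals are those of the fit. DESeq2 1.42.0 and limma 3.58.1 were alternatives. Positions and exon lengths came from GENCODE M21. Poisson intervals and floors cover counting error only. Genes were named by rule: all members; per pathway list the 2 tested genes of smallest p and the 1 of highest mean, all averaging 1 CPM or more; and 2 nearest genes per member. Lifr, Il1r1, Il6ra and Pth1r were named outside it. The members and lists were chosen with earlier results of these data known.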

Additional observations from a re-analysis of the deposited data

How the results depend on the processing

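The test was repeated under 15 alternatives (other scaling factors, filters and tools, protein-coding genes alone, a replicate block, and libraries left out) and 1 more chosen after seeing the data. No member or listed pathway gene passed an adjusted p of 0.05 in any of them, and the lowest adjusted p of a member was 0.400, without control 1. An unadjusted p under 0.05 was met in 3 of the 16 by Efnb2, in 2 by Tnfrsf11b and by Ephb4, in 1 by Csf1 and by Sema4d, and in 0 by Il34. DESeq2 with either filtering has the same unadjusted p (0.0475 for Tnfrsf11b, 0.0461 for Efnb2). For these 2 genes that 1 fit is therefore counted 2 times. Over all genes 0 passed in edgeR and limma under every alternative, leaving out single libraries included, with 272 to 2377 genes at an unadjusted p under 0.05 (790 with limma). DESeq2 called 8 genes, and 11 with its default filtering, the setting chosen after seeing the data; all 11 were also called in the authors' deposited table. Tnfrsf11b (log2 fold change 0.48 to 1.08), Csf1 (0.05 to 0.43), Efnb2 (0.17 to 0.77) and Ephb4 (0.08 to 0.52) kept their sign under all 16. Leaving out single libraries gave -0.037 to 0.23 for Il34 (-0.037 without control 3, -0.013 without rPTH 2) and -0.37 to 0.024 for Sema4d (0.024 without control 2). It gave -0.074 to 0.37 for Tab2 and -0.084 to 0.50 for Nr3c1, both lowest without control 1, and these were -0.054 and -0.032 without control 1 and rPTH 1. Inpp5d ran from -0.26 to 0.082, with 0.081, 0.082 and 0.023 without control 2, control 3 and rPTH 1. It was 0.042 with no low-count filter and 0.0075 in DESeq2 with either filtering; Rhoa was 0.058 and 0.0092 under the same settings. The causes were not tested. With no filter the median of the tested genes shifted by 0.13. Same-numbered libraries did not deviate together (correlations over genes of -0.13, -0.32 and 0.14). Libraries of different number gave -0.27 to 0.35. With deviations taken from means of only 3 libraries, this cannot show whether the numbers pair them. With a replicate block 0 genes passed and 525 had an unadjusted p under 0.05, and the block leaves the difference in the log2 ratio of Tnfsf11 to Tnfrsf11b at -0.53 by construction, since every pair is complete. That difference ran from -1.19 to 0.09 without single libraries. Low counts limit what can be seen of Tnfsf11, Tnfrsf11a and Csf1r.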
